A study of Homo sapiens with 12 samples.

Results

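The genes described here are the 5 NF-kB subunit genes NFKB1, NFKB2, RELA, RELB and REL, the inhibitor genes NFKBIA, NFKBIB, NFKBIE and TNFAIP3, and LCN2, a gene long known as an NF-kB target. They are 10 of the 54127 genes in the count files, and all 10 were matched by symbol to a single Ensembl gene. They were chosen by name as a pathway and selected on their PBKi against DMSO values in these same libraries, so for these 10 genes that comparison is a description and no p-value is given. RNAseq was performed on C4-2 cells, a castration-resistant subline of the LNCaP prostate cancer line, with 6 libraries treated with DMSO vehicle and 6 treated with PBKi. PBKi is the compound HI-TOPK32, which inhibits the kinase PBK. It was used at 1 µM, and the study's methods give a treatment of 6 h. All 12 libraries came from this 1 cell line, grown in RPMI with serum, and the labels mention flow sorting without naming a gate. The labels do not say whether libraries of a group came from separate cultures, so the spread between them may be technical.

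NF-kB transcription factors are dimers of the 5 subunits. The p50 and p52 subunits are processed from the precursors encoded by NFKB1 and NFKB2, while RelA, RelB and c-Rel carry transactivation domains. In resting cells the IkB proteins encoded by NFKBIA, NFKBIB and NFKBIE hold dimers in the cytoplasm until IkB kinase marks them for degradation, and TNFAIP3 encodes A20, a ubiquitin-editing enzyme that shuts the signal off. Several of these genes, including NFKBIA, TNFAIP3, NFKB2 and RELB, are themselves NF-kB targets in many cell types. LCN2 encodes lipocalin-2, a secreted protein that binds iron-carrying siderophores and is made by neutrophils and by inflamed epithelia.

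Depth was 9663203 to 28029908 reads on genes in DMSO and 13122415 to 22817803 in PBKi. DMSO replicate 5 was the shallowest library and was counted in 3 lanes instead of 4. Of the DMSO reads on genes, outside genes or ambiguous between genes, 5.74% to 6.96% fell outside genes. In PBKi this share was 5.94% to 9.30%, and it was largest in replicates 3 and 6. Alignments that were not unique are left out of the total. Levels are given in CPM, the counts scaled to library size with TMM factors. PBK, the target of the compound, had a mean of 219 CPM (SD 37.2) in DMSO against 165 CPM (SD 15.1) with PBKi. The 10 prostate luminal markers examined summed to 4870 to 5740 CPM in DMSO and to 2590 to 3480 CPM in PBKi, with 7 of the 10 lower in PBKi and 1 higher, so they were present in both groups but at unlike levels. Their part in the results below was not tested. In bulk RNA, fewer cells of a type and less RNA per cell cannot be told apart.

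All 10 genes had a positive log2 fold change, with a median of 0.42 against -0.012 over the 14505 genes tested. LCN2 stood highest, at a ratio of group means of 82.2, followed by RELB (3.72) and TNFAIP3 (2.16), while RELA was at 1.01. In 6 of the 10 genes, NFKB2, RELB, NFKBIA, NFKBIB, TNFAIP3 and LCN2, every PBKi library lay above every DMSO library, where 10.5% of all genes tested showed this pattern and 9.68% showed its reverse. In edgeR's quasi-likelihood test 8 of the 10 passed an adjusted p of 0.05 as higher in PBKi, where 20.1% of all genes tested did, and none was lower, where 21.5% of all genes were. As the genes were selected on this contrast, nothing is read from these shares. RELA and NFKBIE were the genes that did not pass.

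**Figure D1:**
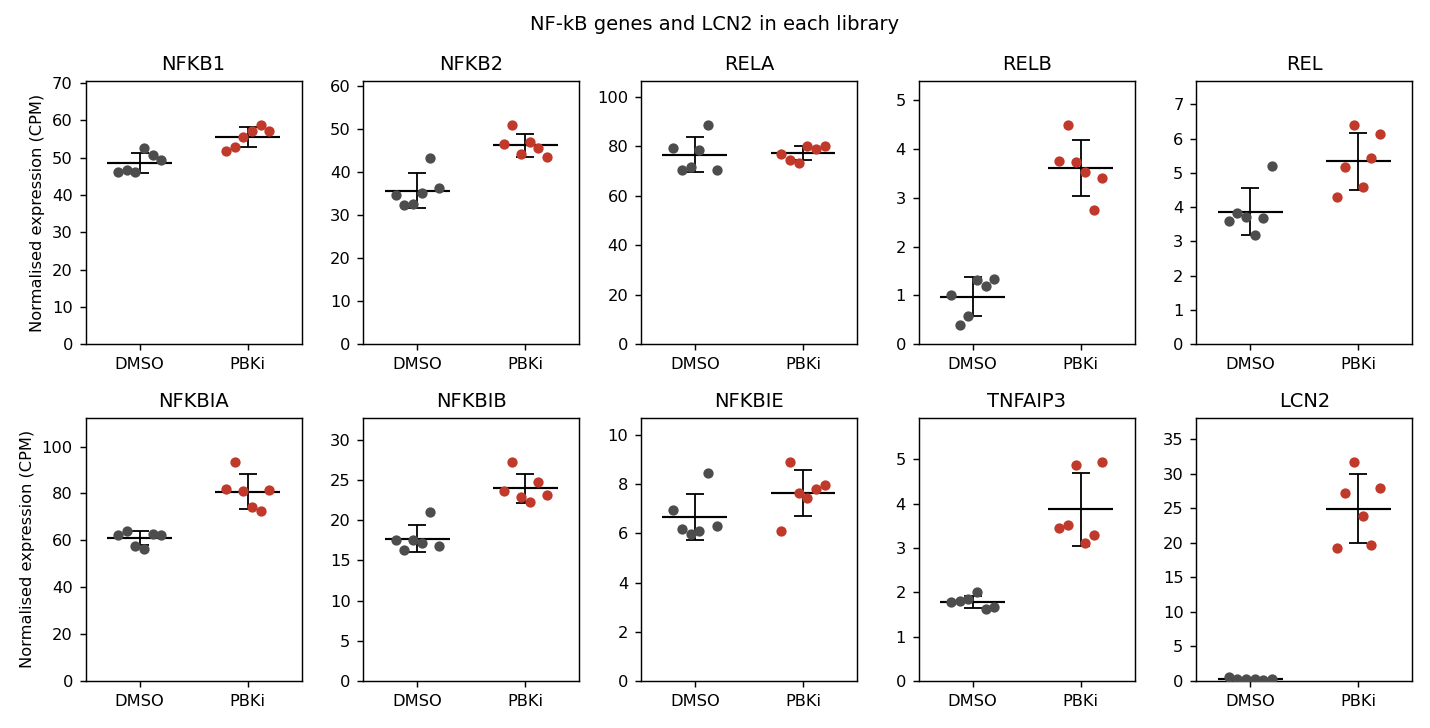
Normalised expression in CPM (vertical axes, each starting at 0) of the 10 genes in the 6 DMSO and 6 PBKi libraries. Points are libraries, horizontal lines are means and bars are SD. The groups are apart in NFKB2, RELB, NFKBIA, NFKBIB, TNFAIP3 and LCN2 and overlap in the other 4 genes.

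Among the subunit genes, RELB differed most between the groups. RELB (ENSG00000104856; GRCh37 chromosome 19, 45504719 to 45541450, plus strand) encodes the subunit that pairs mainly with p52 in the non-canonical pathway. It was at 0.392, 1.10 and 1.34 CPM (lowest, median and highest) in DMSO and at 2.75, 3.63 and 4.49 CPM in PBKi. The lowest PBKi library thus lay above the highest DMSO library, but RELB was a low-abundance transcript, with 5 to 21 counts per library in DMSO and 41 to 88 in PBKi. The summed counts gave a ratio of 3.98 (95% interval 3.14 to 5.08, counting error only). The log2 fold change was 1.96 (standard error 0.22). Replicates 1 to 3 alone gave 2.54 and replicates 4 to 6 gave 1.32, and the DMSO libraries of replicates 1 to 3 (1.01, 0.392 and 0.577 CPM) all lay below those of replicates 4 to 6 (1.32, 1.19 and 1.34 CPM).

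NFKB2 (ENSG00000077150; chromosome 10, 104153867 to 104162281, plus strand), which encodes the p100 precursor of p52, was at 32.3, 34.8 and 43.2 CPM (lowest, median and highest) in DMSO and at 43.4, 46.0 and 50.9 CPM in PBKi. The groups were apart by a narrow margin that DMSO replicate 5, the highest control, set. The log2 fold change was 0.38 (standard error 0.068), with 0.51 in replicates 1 to 3 and 0.26 in replicates 4 to 6. Without DMSO replicate 5 it was 0.44.

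REL (ENSG00000162924; chromosome 2, 61108626 to 61158747, plus strand) encodes c-Rel, best known from lymphoid cells. It was at 3.19, 3.70 and 5.20 CPM in DMSO and at 4.28, 5.31 and 6.40 CPM in PBKi. DMSO replicate 6 reached into the PBKi range, and 3 of 6 PBKi libraries lay above every control, with a log2 fold change of 0.48 (standard error 0.13). NFKB1 (ENSG00000109320; chromosome 4, 103422487 to 103538459, plus strand), the gene of the p105 precursor of p50, was at 46.2, 47.9 and 52.7 CPM in DMSO and at 51.8, 56.3 and 58.8 CPM in PBKi. The difference was small, a log2 fold change of 0.19 (standard error 0.053), and 5 of 6 PBKi libraries lay above every control. RELA (ENSG00000173039; chromosome 11, 65421070 to 65430561, minus strand), the gene of the main transactivating subunit p65, was at 70.4, 75.1 and 88.6 CPM in DMSO and at 73.2, 77.8 and 79.9 CPM in PBKi. Here the PBKi values fell inside the DMSO range, and the log2 fold change was 0.014 (standard error 0.059).

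Per kb of the canonical transcript, RELA made up 55.3% ± 1.49 (SD, n = 6) of the summed subunit transcripts in DMSO and 49.6% ± 1.15 (SD, n = 6) in PBKi. The share of NFKB2 was 21.5% ± 0.953 in DMSO and 24.8% ± 1.40 in PBKi, and that of NFKB1 21.9% ± 1.29 and 22.2% ± 0.941 (SD, n = 6 each). RELB went from 0.772% ± 0.300 to 2.59% ± 0.425 and REL from 0.639% ± 0.137 to 0.779% ± 0.130 (SD, n = 6 each). The libraries of both groups were apart in the shares of RELA, NFKB2 and RELB, and overlapped in those of NFKB1 and REL. The shares depend on the transcript taken as length, and shares on another length were not computed.

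**Figure D2:**
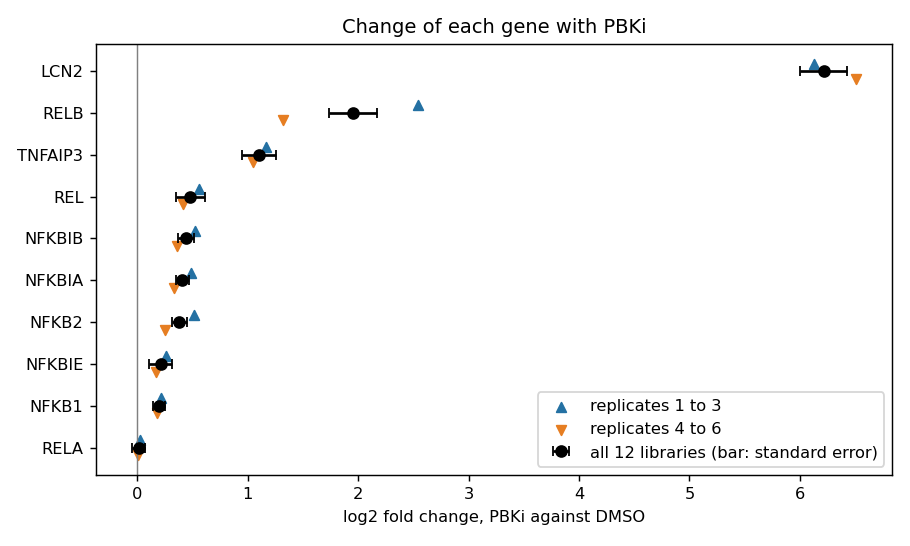
Log2 fold change of PBKi against DMSO (horizontal axis) for each of the 10 genes from all 12 libraries, with bars of 1 standard error, and from replicates 1 to 3 and 4 to 6 alone. LCN2 lies near 6, RELB between 1.32 and 2.54, TNFAIP3 near 1, and the other 7 genes below 0.6.

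Of the inhibitor genes, TNFAIP3 (ENSG00000118503; chromosome 6, 138188351 to 138204451, plus strand) differed most. It was at 1.62, 1.79 and 2.01 CPM (lowest, median and highest) in DMSO and at 3.12, 3.49 and 4.95 CPM in PBKi. The DMSO libraries lay close together, while PBKi replicates 3 and 6, at 4.87 and 4.95 CPM, lay above the other 4, at 3.12 to 3.53 CPM. These 2 libraries also had the largest share of reads outside genes. They were the 2 highest PBKi libraries for REL (6.40 and 6.13 CPM) and LCN2 (31.7 and 27.9 CPM) too, but not for the other genes described. In LCN2, PBKi replicate 2 was close behind at 27.2 CPM. The part of the reads outside genes in these values was not tested. The log2 fold change of TNFAIP3 was 1.10 (standard error 0.15), with values from 1.01 to 1.17 over the 12 fits that each left out 1 library. The gene rested on 15 to 51 counts per library in DMSO and 46 to 115 in PBKi.

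NFKBIA (ENSG00000100906; chromosome 14, 35870285 to 35873955, minus strand) encodes IkB-alpha, the inhibitor that NF-kB itself resupplies after each round of activation. It was at 56.3, 62.2 and 63.99 CPM in DMSO and at 72.6, 81.2 and 93.6 CPM in PBKi. All 6 PBKi libraries lay above all 6 controls, with PBKi replicate 2 the highest, and the log2 fold change was 0.41 (standard error 0.061). NFKBIB (ENSG00000104825; chromosome 19, 39390340 to 39399533, plus strand), the IkB-beta gene, was at 16.3, 17.3 and 21.0 CPM in DMSO and at 22.2, 23.4 and 27.3 CPM in PBKi. The groups were apart, again with DMSO replicate 5 the highest control and PBKi replicate 2 the highest treated library, and the log2 fold change was 0.44 (standard error 0.071). NFKBIE (ENSG00000146232; chromosome 6, 44225903 to 44233525, minus strand), the IkB-epsilon gene, was at 5.99, 6.24 and 8.44 CPM in DMSO and at 6.09, 7.71 and 8.92 CPM in PBKi. Its groups overlapped through DMSO replicate 5, the second highest of all 12 values, and PBKi replicate 1, the lowest treated value, and the log2 fold change was 0.21 (standard error 0.10). It was 0.28 without DMSO replicate 5 and 0.27 without PBKi replicate 1.

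LCN2 (ENSG00000148346; chromosome 9, 130911350 to 130915732, plus strand) was at 0.108, 0.283 and 0.576 CPM (lowest, median and highest) in DMSO and at 19.2, 25.6 and 31.7 CPM in PBKi. The DMSO libraries held 1 to 12 LCN2 counts each, 32 in all, and the PBKi libraries 256 to 749 each, 2605 in all. The ratio of the summed counts, scaled to library size, was 77.2 (95% interval 54.5 to 113, counting error only), and the log2 fold change was 6.22 (standard error 0.21), the 16th highest of the 14505 genes tested. Replicates 1 to 3 alone gave 6.13, and replicates 4 to 6 gave 6.51. LCN2 reached 10 counts in 1 DMSO library and in all 6 PBKi libraries, so it entered the genes tested through its PBKi values. Within the PBKi group its spread was 19.8% of the mean (SD, n = 6), with PBKi replicates 1 and 5 lowest and replicates 3 and 6 highest.

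As neutrophils make LCN2, 10 neutrophil markers were examined beside it. Their sum was 0.692 to 1.51 CPM in DMSO and 1.58 to 3.35 CPM in PBKi, so it moved with the treatment, and most of the difference was S100A9, at 10 counts over the 6 DMSO libraries and 125 over the 6 PBKi libraries. LTF had 39 counts in DMSO and 82 in PBKi, and CSF3R 36 and 66. The other 7 were at or near 0, as S100A8 and FCGR3B had 0 counts in all libraries, MPO 0 in DMSO and 1 in PBKi, ELANE 1 and 1, PRTN3 5 and 0, AZU1 7 and 3, and CAMP 8 and 4. The 12 markers of other immune cells summed to 2.21 to 4.45 CPM in DMSO and 2.63 to 5.21 CPM in PBKi, most of it CD163, and CD3D, CD2 and MS4A1 had 0 counts. PTPRC of the same list had 3 counts over the 6 DMSO libraries and 8 over the 6 PBKi libraries. All libraries came from 1 cell line, and whether any immune cells were present was not tested. Any part of such cells in the LCN2 values was not tested either.

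Expressed per kb of the canonical transcript, the only scale on which levels are compared between genes here, NFKBIA was the most abundant of the 10 in DMSO (39.0 ± 1.97 CPM per kb, SD, n = 6), followed by RELA (30.4 ± 2.83) and NFKBIB (14.9 ± 1.40). NFKB1 (11.4 to 13.0 over the libraries) and NFKB2 (10.7 to 14.3) came next and overlapped, and then NFKBIE (2.84 ± 0.399). RELB, TNFAIP3, LCN2 and REL followed at 0.430, 0.383, 0.370 and 0.348 CPM per kb, and each of these overlapped its neighbour. In PBKi, NFKBIA was again highest (51.8 ± 4.74 CPM per kb), and LCN2 (30.4 ± 6.02) had moved from the ninth to the third place, level with RELA (30.7 ± 1.14), whose range its own enclosed. NFKB2 (15.3 ± 0.883) and NFKB1 (13.7 ± 0.673) overlapped, and RELB (1.22 to 1.99), TNFAIP3 (0.829 ± 0.176) and REL (0.481 ± 0.0748) took the last places without overlap. The order depends on the transcript taken as length. With the union of all annotated exons LCN2 (15.6 ± 3.09 CPM per kb in PBKi) stood above RELA (14.1 ± 0.525), with ranges that overlapped, and in DMSO LCN2 came last. On that length NFKB2 stood above NFKB1 without overlap, at 6.38 against 3.10 CPM per kb in DMSO and 8.28 against 3.54 in PBKi.

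**Figure D3:**
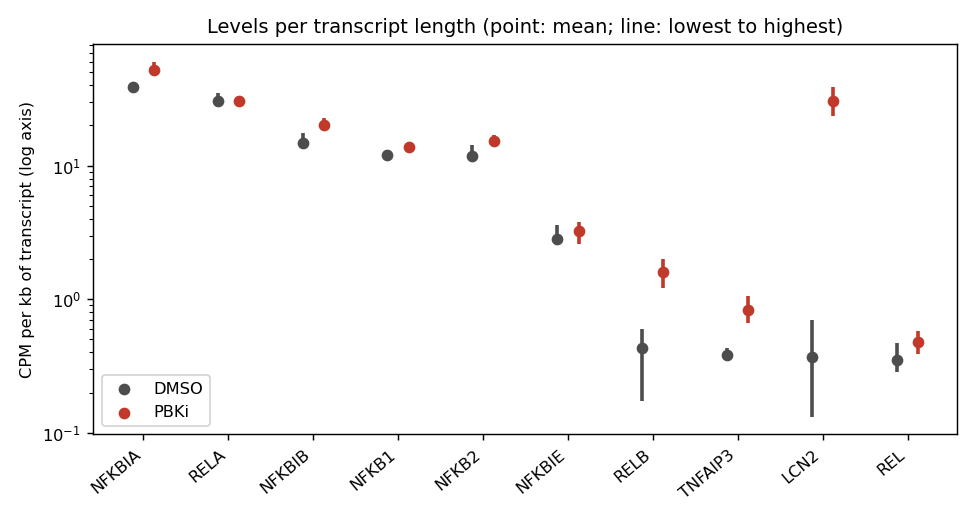
Levels in CPM per kb of canonical transcript (vertical log axis) for the 10 genes in the order of their DMSO means. Points are means of 6 libraries and lines run from the lowest to the highest library. LCN2 goes from 0.370 to 30.4 CPM per kb, into the range of RELA, while the order of the other genes changes little.

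As background, NF-kB dimers bind DNA at kB motifs. Promoter sequences of 300 bases, 250 before and 50 after the transcript start, were available from RefSeq for 8 of the 10 genes (13 promoters, drawn from GRCh38.p14), and each was found at 1 place in GRCh37. The kB consensus searched on both strands was GGG, a purine, a pair of any bases, a pair of pyrimidines, then CC, so an inverted match reads GG, a pair of purines, a pair of any bases, a pyrimidine, then CCC. At least 1 match lay in a promoter of 7 of these 8 genes, where 17.1% of the genes tested with a RefSeq promoter and 47.5% of the genes of the target list described below held one. The only gene of the 8 with none was RELA. A match is a description of the letters and not evidence of binding, and it was not related here to how far a gene moved.

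The 3 promoters below are shown whole because they belong to the target gene and to the feedback inhibitors, whose libraries were apart between the groups. Capitals mark the matches, and all are written 5′ to 3′ on the strand of the gene. They are LCN2 (GRCh37 chr9:130911482-130911781, plus strand), with 1 match that starts 175 bases before the RefSeq transcript start and lies downstream of the first base of the gene as GENCODE gives it, TNFAIP3 (chr6:138188146-138188445, plus strand), with matches that start 67 and 55 bases before it, and NFKBIA (chr14:35873906-35874205, minus strand), with 1 match that starts 81 bases before it.
LCN2: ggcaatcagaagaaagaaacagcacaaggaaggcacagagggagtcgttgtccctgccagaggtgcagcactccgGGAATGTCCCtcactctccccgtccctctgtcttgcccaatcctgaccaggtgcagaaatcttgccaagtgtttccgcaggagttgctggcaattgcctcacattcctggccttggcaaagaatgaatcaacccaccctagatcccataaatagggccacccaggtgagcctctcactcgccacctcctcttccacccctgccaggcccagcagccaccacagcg
TNFAIP3: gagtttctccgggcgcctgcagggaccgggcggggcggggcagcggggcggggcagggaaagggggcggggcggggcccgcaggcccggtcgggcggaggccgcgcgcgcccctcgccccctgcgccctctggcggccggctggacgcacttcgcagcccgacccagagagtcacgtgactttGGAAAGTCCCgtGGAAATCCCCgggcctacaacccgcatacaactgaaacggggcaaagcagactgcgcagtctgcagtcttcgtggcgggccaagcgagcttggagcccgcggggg
NFKBIA: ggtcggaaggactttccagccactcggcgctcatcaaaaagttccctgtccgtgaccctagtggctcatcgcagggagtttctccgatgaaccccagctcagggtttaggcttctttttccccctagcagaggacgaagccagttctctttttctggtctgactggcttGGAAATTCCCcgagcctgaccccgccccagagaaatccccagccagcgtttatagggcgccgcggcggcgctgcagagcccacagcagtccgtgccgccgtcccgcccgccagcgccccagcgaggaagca

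For the subunit genes and NFKBIB the stretch around the matches is shown, with 10 bases on each side, or fewer where the promoter ends. The log2 fold change of each gene is printed with it, and a link between match and change was not tested. NFKB1 (GRCh37 chr4:103422457-103422486, a log2 fold change of 0.19), NFKB2 (chr10:104154218-104154276, 0.38), REL (chr2:61108652-61108682, 0.48) and NFKBIB (chr19:39390571-39390658, 0.44) all lie on the plus strand. In NFKB2, REL and NFKBIB a match in each orientation overlaps by all but 1 base and reads as a run of 11 capitals. A further NFKB2 promoter held 2 matches and is not shown.
NFKB1: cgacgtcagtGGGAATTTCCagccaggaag
NFKB2: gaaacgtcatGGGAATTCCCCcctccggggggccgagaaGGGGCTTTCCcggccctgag
REL: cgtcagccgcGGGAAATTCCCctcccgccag
NFKBIB: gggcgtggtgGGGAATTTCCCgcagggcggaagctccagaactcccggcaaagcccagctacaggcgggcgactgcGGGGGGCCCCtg

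The genes next to LCN2 were read as well, in a window chosen after the values were seen. Of the 13 genes tested within 200 kb of LCN2, 3 were higher in PBKi (EEIG1, SLC27A4 and SWI5) at an adjusted p of 0.05 (edgeR), where 20.1% of all genes tested were, so the count is no result about the neighbours. The log2 fold changes ran from -0.43 to 0.85, all far below that of LCN2. The nearest measured neighbours, PTGES2 at -0.19 and BBLN at -0.067, did not pass.

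Upstream of the subunits, 41 receptor, adaptor and kinase genes of the pathway were listed, of which 39 were matched and 36 tested. Of the 36, 13 rose and 5 fell with PBKi (edgeR, Benjamini-Hochberg adjusted over all genes tested, as for every adjusted p here), or 36.1% and 13.9% beside 20.1% and 21.5% of all genes. The median log2 fold change was 0.069, beside -0.012 for all genes. BIRC3, the cIAP2 ubiquitin ligase and a known NF-kB target, rose most, from 1.90 ± 0.731 to 11.3 ± 2.26 CPM (SD, n = 6 each; log2 fold change 2.57, adjusted p = 8.67e-09 from edgeR). MAP3K8, the TPL2 kinase held by p105, rose from 6.13 ± 0.743 to 12.3 ± 1.15 CPM (log2 fold change 0.99, edgeR adjusted p = 2.23e-07). MAP3K14, the NIK kinase that drives p100 processing, rose from 19.2 ± 2.15 to 29.9 ± 2.54 CPM (log2 fold change 0.65, edgeR adjusted p = 3.54e-06), and RIPK1, the kinase of the TNF receptor complex, by 0.39 on the log2 scale. In BIRC3, MAP3K8, MAP3K14 and RIPK1 all PBKi libraries lay above all controls. TLR3, the receptor for double-stranded RNA, was among the 13 that rose but too low for the naming rule. It is named after its values were seen, with 66 counts over the 6 DMSO libraries and 222 over the 6 PBKi libraries (log2 fold change 1.68). It reached 10 counts in 2 DMSO libraries and in all 6 PBKi libraries, so it entered the genes tested through its PBKi values.

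The largest fall in this list was smaller in size than its 3 largest rises. IL1RAP, the co-receptor for interleukin-1, fell from 40.9 ± 2.37 to 28.8 ± 1.98 CPM (SD, n = 6 each; log2 fold change -0.51, edgeR adjusted p = 2.94e-06). CARD10, a scaffold of the BCL10 complex, had a log2 fold change of -0.37, UBE2N, the enzyme that builds K63-linked ubiquitin chains, -0.31, and MALT1, the protease of the BCL10 complex, -0.18. MALT1 passed narrowly (edgeR adjusted p = 0.0465), and its call was lost in 7 of the 12 fits that left out 1 library. The catalytic subunits of IkB kinase moved little, as IKBKB was at 36.0 and 35.5 CPM in DMSO and PBKi (adjusted p = 0.791 from edgeR) and CHUK at 48.8 and 43.6 CPM (log2 fold change -0.17, adjusted p = 0.0245 from edgeR). These 2 genes lie outside the naming rule and were picked after their values were seen.

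Of 23 further inhibitors of the pathway, 22 were matched and 20 tested, with 7 higher and 2 lower, or 35.0% and 10.0% beside 20.1% and 21.5% of all genes tested. The median log2 fold change was 0.017, beside -0.012 for all genes. NLRC5 rose from 2.34 ± 0.657 to 12.3 ± 1.92 CPM (SD, n = 6 each; log2 fold change 2.44, edgeR adjusted p = 9.27e-10), and it is better known as the activator of HLA class I genes than as a brake on NF-kB. NFKBIZ, the nuclear IkB-zeta protein that promotes LCN2 transcription in other systems, rose from 1.81 ± 0.451 to 7.55 ± 1.70 CPM (log2 fold change 2.02, edgeR adjusted p = 8.47e-08). ZC3H12A, the RNase regnase-1 that degrades inflammatory mRNAs, rose from 12.6 ± 2.10 to 29.5 ± 5.13 CPM (log2 fold change 1.22, edgeR adjusted p = 4.21e-07). NFKBID, another nuclear IkB, rose by 0.66 on the log2 scale, with groups that overlapped. The 2 that fell were the deubiquitinases USP21 (-0.34) and OTULIN (-0.27), each with all PBKi libraries below all controls.

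The list of 50 NF-kB target genes was measurable in part, as 48 were matched and 24 reached the count needed for testing. Of the 24, 14 rose and 4 fell, or 58.3% and 16.7% beside 20.1% and 21.5% of all genes tested. The median log2 fold change was 0.27, beside -0.012 for all genes. The 14 include CXCL8 and CCL20, which reached the count needed through their PBKi libraries. Of those whose mean log2 CPM reached 1, FTH1, the ferritin heavy chain, rose from 131.6 ± 68.3 to 621 ± 99.1 CPM (SD, n = 6 each; log2 fold change 2.25, edgeR adjusted p = 3.52e-07). FTH1 has many processed pseudogenes, so its counts are uncertain, and DMSO replicate 5 was at 269.8 CPM against 117.6 CPM in the next control. IRF1, an interferon-responsive transcription factor, rose from 2.55 ± 0.398 to 8.32 ± 0.750 CPM (log2 fold change 1.69, edgeR adjusted p = 3.42e-09). B2M, the light chain of HLA class I, rose from 190 ± 32.6 to 414 ± 55.3 CPM (log2 fold change 1.12, edgeR adjusted p = 2.70e-07), and JUNB, an AP-1 subunit, from 26.4 ± 6.60 to 43.4 ± 2.34 CPM (log2 fold change 0.73). TNFAIP8 (-0.76), TNFAIP2 (-0.72), GADD45B (-0.46) and EFNA1 (-0.25) fell. The call of EFNA1 was lost in 4 of the 12 fits that left out 1 library (DMSO replicates 1, 2 and 3 and PBKi replicate 6).

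The chemokine genes CXCL8 and CCL20 had the largest fold changes of the target list but too few counts for the naming rule, and were picked after their values were seen. CXCL8 had 4 counts over the 6 DMSO libraries and 238 over the 6 PBKi libraries, a scaled ratio of 56.4 (95% interval 21.7 to 209, counting error only). CCL20 had 2 and 128 counts, a ratio of 60.7 (95% interval 16.5 to 506, counting error only). Both passed the filter through their PBKi libraries alone, as no DMSO library reached 10 counts. Of the 24 target genes that were not tested, 20 overlapped between the groups, among them genes with no count in any library. In the other 4 (TNF, CXCL2, CXCL10 and SAA1) every PBKi library lay above every control at means of 0.116 to 0.420 CPM in PBKi. These 4 rested on 1 to 13 counts per PBKi library and 0 to 2 per DMSO library. The share of this pattern over all untested genes was not computed, so nothing is read from the count. The classical targets IL6, CXCL1, CXCL3 and CSF2 stayed at or near 0, as CXCL1, CXCL3 and CSF2 had no count in any library.

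**Figure D4:**
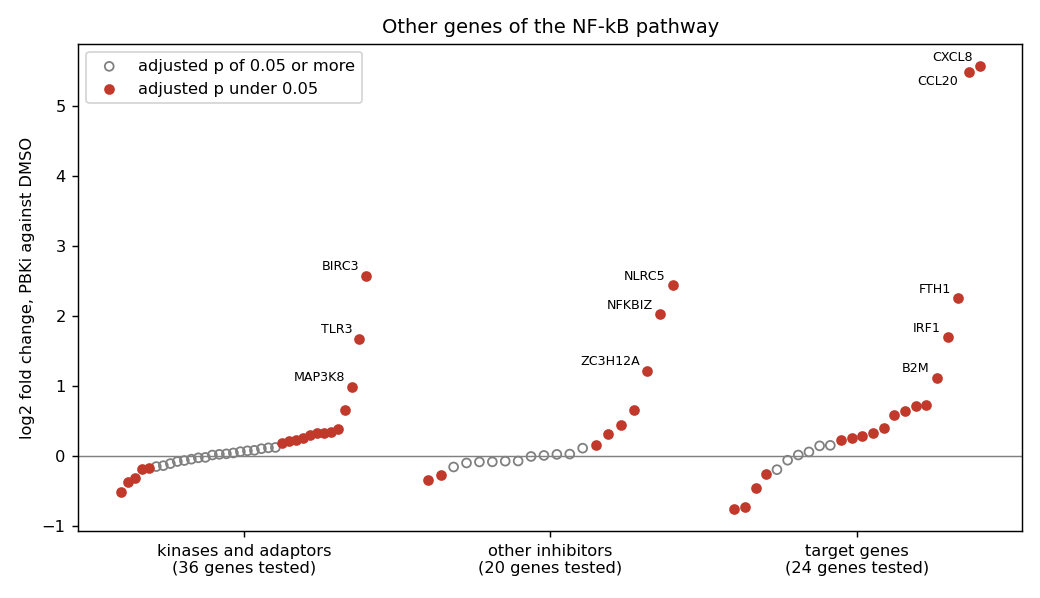
Log2 fold change of PBKi against DMSO (vertical axis) for the tested genes of the 3 pathway lists, each list sorted by value. Filled points passed an adjusted p of 0.05 in edgeR's quasi-likelihood test and open points did not. Of the filled points, 13, 7 and 14 lie above 0 and 5, 2 and 4 below it, in the order of the lists.

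Genes tied to LCN2 itself were read from a list of 8. NFKBIZ rose as given above, and CEBPD, a C/EBP factor that binds the LCN2 promoter in other cells, rose from 5.93 ± 1.35 to 7.26 ± 0.614 CPM (SD, n = 6 each; log2 fold change 0.33, edgeR adjusted p = 0.0357), a call lost in 7 of the 12 fits that left out 1 library. CEBPB (0.15), SLC22A17, a proposed LCN2 receptor (0.12), and CEBPA (-0.53) did not pass, and LRP2, MMP9 and CEBPE were too low to be tested.

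The genes whose log2 CPM ran most like that of LCN2 over the 12 libraries, of 9848 compared, were GPNMB (Pearson r = 0.996), NOS3 (0.993), TRIM16L (0.992), SCPEP1 (0.992) and ME1 (0.991). For NFKBIA they were SMAD6 (0.973), IGFBP3 (0.969), ZC3H12A (0.966), GPER1 (0.963) and LARP6 (0.958). In all 10 of these genes every PBKi library lay above every DMSO library, so r carries the difference between the groups, the 12 points share libraries and depth, and the values are a description only.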

How the data were processed

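Total RNA of C4-2 cells was sequenced as single-end reads. Per the labels and the study's methods, the authors aligned reads to GRCh37 with TopHat2 2.0.4 and deposited HTSeq 0.5.3p9 read counts for each gene, not normalised, in 47 lane files of 54127 genes. Lanes were summed per library, and rows for reads on no gene, on several genes or not aligned uniquely were left out. Of the reads on genes, outside genes or ambiguous between genes, those outside made up 5.74% to 9.30%. Ambiguous reads made up 3.87% to 4.35%.

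Genes that reached 10 counts in 6 or more libraries were tested by edgeR 4.0.16 (R 4.3.3) with TMM normalisation and the quasi-likelihood test of PBKi against DMSO, with Benjamini-Hochberg adjusted p under 0.05 as the threshold. Standard errors are the absolute log2 fold change over the square root of F. The procedure was also run on simulated counts with the same spread beyond counting error for all genes. That setting is simpler than these data, so nothing is read from it here. Intervals on count ratios are exact conditional binomial intervals and cover counting error only. Symbols were given to 47098 of the gene rows, from GENCODE 44 on GRCh37 and RefSeq. That annotation is newer than the one counted, and IKBKG, IKBKE, OTUD7B, CCL5, SOD2 and 1 endothelial marker were not matched.

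The genes and lists were chosen with earlier results of these data known. Named list genes are the 4 largest rises and 4 largest falls with an adjusted p under 0.05 and a mean log2 CPM of at least 1. Likeness was taken on log2 CPM (prior count 2) among genes with a mean of 3 or more. How strand was treated in counting is not given in the sources used here. NFKBIB shares 40 exon bases with SIRT2 and TNFAIP3 95 with WAKMAR2 on the opposite strand, where reads cannot be told apart. REL shares 5702 of its 17129 exon bases with a long non-coding RNA on its own strand, ENSG00000267520. RELA shares 103 with RELA-DT on the opposite strand. Neither of these overlapping genes is in the count files, so their reads there may have been counted for REL and RELA. Markers of fibroblasts summed to 19.3 to 26.1 CPM and those of endothelium to 3.14 to 7.25 CPM over all libraries.

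Alternatives were DESeq2 1.42.0, RLE factors, limma-voom (limma 3.58.1), other count filters, lanes 6 to 8, a replicate block, the sets of replicates 1 to 3 and 4 to 6, stricter thresholds and leaving out libraries.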

Additional observations from a re-analysis of the deposited data

Results flagged for a closer look

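Values of the 10 genes and the named list genes were searched for a library far from the rest of its group, by the gap to its nearest value as a share of the group's range. Of 66 groups of 6 values, 7 held such a library (10.6%). The rule sets apart about 1 in 20 independent groups by chance, and these groups are not independent, since they share the same 12 libraries. DMSO replicate 5 accounted for 5 of the 7, as the highest control in each. It was at 43.2 CPM in NFKB2 (next control 36.2), 21.0 CPM in NFKBIB (17.6), 269.8 CPM in FTH1 (117.6), 39.0 CPM in JUNB (26.8) and 8.55 CPM in CEBPD (6.04). It is the shallowest library and has 3 lanes, and the part of this in its values was not tested. DMSO replicate 6 was at 5.20 CPM in REL (next control 3.84), and PBKi replicate 6 at 8.42 CPM in CEBPD (next 7.23).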

How the results depend on the processing

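With replicates 4 to 6 alone, 1273 genes were higher and 1207 lower in PBKi, 6 kinase and adaptor genes were higher and 1 lower, 1 other inhibitor was lower, 9 target genes were higher and 2 lower, and 5 of the 10 genes described passed. NFKB1 (0.18), NFKB2 (0.26) and REL (0.41) then no longer passed, nor did CARD10, UBE2N, MALT1, OTULIN, GADD45B, EFNA1 and CEBPD. Where the log2 fold change also had to reach 0.5 in size, 1278 genes were higher and 626 lower, with 4 kinases and adaptors higher and 1 lower, 4 other inhibitors higher and 0 lower, and 9 target genes higher and 2 lower. At an adjusted p under 0.01, 2073 genes were lower, and 8 kinases and adaptors were higher and 2 lower. Kinases and adaptors lower in PBKi were 3 without a low-count filter and 3 to 6 with 1 library left out, with 3 without DMSO replicate 2, DMSO replicate 6 or PBKi replicate 3. Replicates 1 to 3 alone, a set of the same size, gave 3352 genes higher and 3187 lower, and 8 of the 10 genes passed. In that set 15 kinases and adaptors were higher and 4 lower, 8 and 2 other inhibitors, and 16 and 5 target genes. A stricter rule lowers the counts by construction. The cause of the difference between the 2 sets of replicates, and of the other changes, was not tested.

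NFKBIE passed without DMSO replicate 5 (0.28) and without PBKi replicate 1 (0.27). It also passed without both DMSO replicate 5 and PBKi replicate 3 (0.28), an alternative added after seeing the data. The 10 genes were selected on this contrast, so which of them pass in any fit is a description and nothing is read from it. Neither the 10 genes nor the list genes named by rule changed direction in the alternatives run. Other genes mentioned, such as TLR3, CHUK, CXCL8 and the neighbours of LCN2, were not followed through them.

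Libraries with the same replicate number share only a number in the labels. Their deviations from the group means correlated at 0.0887 to 0.299 over the 6 pairs, and 4 of 6 DMSO libraries correlated best with the PBKi library of their number. With a replicate block, 3485 genes were higher and 3803 lower, and 8 of the 10 genes passed. Depth limits RELB, TNFAIP3 and LCN2 most, with 1 to 51 counts per DMSO library.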
